A study of Homo sapiens with 8 samples.

Results

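The genes described here are the 6 protein genes of the human mitochondrial genome that do not encode a subunit of respiratory complex I. They are MT-CYB of complex III, MT-CO1, MT-CO2 and MT-CO3 of complex IV, and MT-ATP6 and MT-ATP8 of complex V. They were chosen by name among the 57992 genes counted per sample, after mitochondrially encoded genes had been seen to differ between the groups compared here. The RNAseq data came from RKO, an established human colon carcinoma cell line in which the study regards beta-catenin signaling as intact. A group of 4 samples received a control siRNA and a group of 4 an siRNA against A20, the ubiquitin-editing enzyme encoded by TNFAIP3, and every sample was then stimulated with recombinant human wnt3a at 50 ng/mL for 24 hours. All 8 samples therefore carried an siRNA and wnt3a, and no unstimulated cells are part of the comparison. A20 transcripts were lowered rather than absent, so the A20 siRNA group models a partial knockdown, and effects of the siRNA on other transcripts cannot be told apart from those of A20. Neither the labels nor the methods say whether replicates were separate experiments, so p-values measure only the spread between these samples, which may be technical.

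Mitochondrial DNA is transcribed from both strands as long precursors, and most of its mRNAs are released when the tRNAs between them are cut out and are then given a short poly(A) tail. The 6 genes encode core membrane subunits. Cytochrome b (MT-CYB) is the only mitochondrially encoded subunit of complex III. MT-CO1 and MT-CO2 hold the metal centers of cytochrome c oxidase and MT-CO3 completes its core, while MT-ATP6 lines the proton path of ATP synthase and MT-ATP8 is a small subunit beside it. All other subunits of these complexes are made from nuclear genes, so each complex draws on transcripts from both genomes.

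The genes lie on the plus strand of chromosome M in GRCh38, a single exon each and with no annotated intron. Their identifiers are ENSG00000198727.2 (MT-CYB), ENSG00000198804.2 (MT-CO1), ENSG00000198712.1 (MT-CO2), ENSG00000198938.2 (MT-CO3), ENSG00000198899.2 (MT-ATP6) and ENSG00000228253.1 (MT-ATP8). Along that strand, MT-CO1 spans 5904 to 7445, MT-CO2 7586 to 8269, MT-ATP8 8366 to 8572, MT-ATP6 8527 to 9207, MT-CO3 9207 to 9990 and MT-CYB 14747 to 15887. MT-ATP8 and MT-ATP6 are read in different frames from the same mRNA and share 46 bases, and MT-ATP6 shares its last base with MT-CO3. The MT-ATP8 gene, chrM:8366-8572, plus strand, is printed whole because those shared bases decide which reads could be counted for it; capitals mark the overlap with MT-ATP6.
MT-ATP8: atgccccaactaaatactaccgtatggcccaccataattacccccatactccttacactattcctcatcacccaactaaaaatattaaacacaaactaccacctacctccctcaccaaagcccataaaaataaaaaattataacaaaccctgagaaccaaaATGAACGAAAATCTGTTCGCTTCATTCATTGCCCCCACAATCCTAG

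The annotated ends of the genes are shown because they differ in how the reading frame closes. Capitals mark the stop codon or, for MT-CYB and MT-CO3, the single base left after the last whole codon, which the poly(A) tail completes to a stop. The last 30 bases of each gene, plus strand, read as follows.
MT-CYB, chrM:15858-15887: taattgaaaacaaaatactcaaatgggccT
MT-CO1, chrM:7416-7445: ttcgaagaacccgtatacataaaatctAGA
MT-CO2, chrM:8240-8269: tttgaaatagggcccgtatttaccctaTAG
MT-CO3, chrM:9961-9990: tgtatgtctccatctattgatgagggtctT
MT-ATP6, chrM:9178-9207: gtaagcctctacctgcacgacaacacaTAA
MT-ATP8, chrM:8543-8572: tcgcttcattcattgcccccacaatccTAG

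The overlaps between genes and the nuclear copies of this sequence set how many reads each gene could receive, on the assumption that a read was counted where it mapped uniquely and overlapped a single gene on either strand. A read of 75 bases that touches MT-ATP8 overlaps no other gene at 88 of 281 positions (31.3%), against 74.2% for MT-ATP6 and between 82.6% and 91.6% for the others. Nuclear chromosomes also hold copies of mitochondrial sequence. Of the positions in MT-CO1 alone, 37.2% had an exact copy of 75 bases elsewhere in GRCh38, all on chromosome 1. The share was 25.5% in MT-ATP6, 15.0% in MT-CO3 and 12.8% in MT-CO2, while MT-ATP8 and MT-CYB had no such position.

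Total counts ranged from 21226451 to 34194273 per sample, and the groups overlapped. TNFAIP3 was at 3.00 to 3.47 CPM (reads per 1000000 counted, after TMM scaling of library sizes) with A20 siRNA and 4.92 to 5.83 with control siRNA, which is -0.71 on the log2 scale (standard error 0.10, BH-adjusted p = 0.00258, edgeR; this is edgeR's quasi-likelihood F-test with p-values corrected by Benjamini-Hochberg, used throughout). Of the epithelial markers EPCAM, KRT8, KRT18 and CDX2 were present in every sample, while CDH1 and KRT19 had no read and VIL1 at most 1. No marker of fibroblasts or endothelial cells exceeded 4 reads in a sample, and of 6 leukocyte markers CD68 alone exceeded 2 reads, with a summed level between 0.782 and 1.44 CPM in control samples and between 0.736 and 1.22 in A20 siRNA samples.

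The counts behind the mitochondrial values were large. Each of the 6 genes had between 2090 and 110122 reads per sample, and 22696 or more outside MT-ATP8, so counting error alone was at most 2.19% of a value. In bulk RNA, fewer cells of a type and less RNA per cell cannot be told apart, and the same holds for fewer mitochondria per cell and less RNA per mitochondrion.

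To place the genes on a common scale, CPM was divided by gene length. Per 1000 annotated bases the mean level over the 8 samples was 1878 for MT-ATP6, 1864 for MT-CO1, 1801 for MT-CO3, 1499 for MT-CO2, 1014 for MT-CYB and 706 for MT-ATP8, with SDs of 203, 177, 120.2, 96.0, 93.5 and 158. The highest was 2.66 times the lowest. MT-ATP6 was above MT-CO1 in 4 of 8 samples, so these neighbours were not ordered, and MT-CO1 was above MT-CO3 in 7 of 8. MT-CO2 was below MT-CO3 and above MT-CYB in all 8 samples. Of neighbours in this order, MT-CO2 and MT-CYB were the only pair whose ranges did not overlap.

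The low place of MT-ATP8 depended on the length used. Per 1000 read positions that overlap no other gene, a scale chosen after seeing the data, MT-ATP8 stood at 1661 ± 372 (SD, n = 8), and it was above MT-CO2, at 1615 ± 103, in 4 of 8 samples. With positions that have an exact nuclear copy also left out, MT-CO1 (3091 ± 294) and MT-ATP6 (3068 ± 331) led, and MT-CYB was lowest at 1081 ± 99.7 (SD, n = 8 each). MT-CYB was thus below MT-CO1, MT-CO2, MT-CO3 and MT-ATP6 on every scale.

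**Figure D1:**
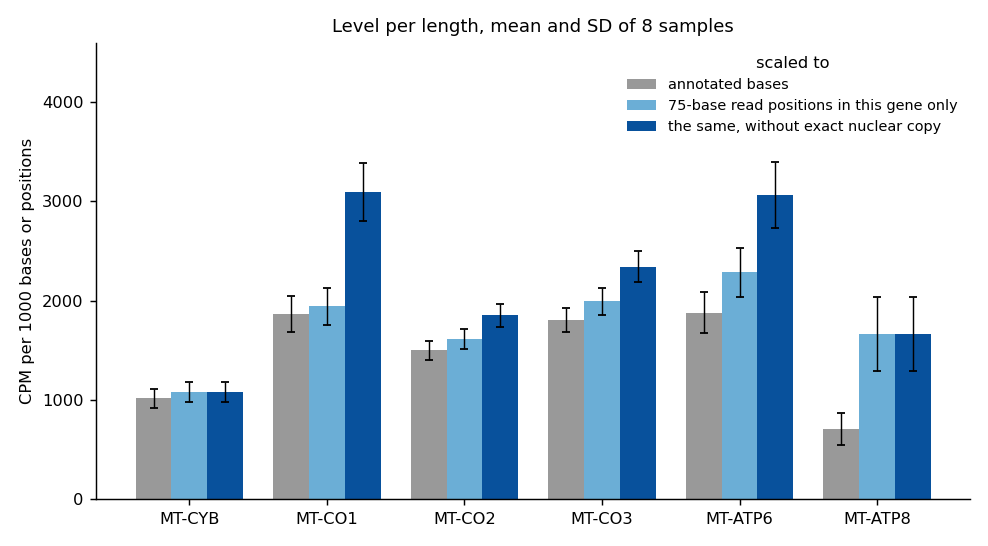
Level of each gene in CPM per 1000 annotated bases, per 1000 positions of a 75-base read that overlap this gene alone, and per 1000 of those positions without an exact nuclear copy (y axis); bars are means and error bars SDs of all 8 samples. MT-ATP8 moves from 706 to 1661 between the first scales, while MT-CYB stays near 1014 to 1081.

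Next, the levels with A20 siRNA were set beside those with control siRNA. The mitochondrially encoded genes were taken up because they had already been seen to differ between these groups, so the differences of the 6 genes are a description and are used as evidence for nothing. Summed, the 6 genes made up 0.742% ± 0.0559 of the reads of a control sample and 0.837% ± 0.0377 of those of an A20 siRNA sample (means ± SD of 4 samples). All A20 siRNA samples, at 0.790% to 0.871%, lay above all control samples, at 0.660% to 0.781%. The 5 genes other than MT-ATP8 were each higher on average with A20 siRNA, MT-ATP8 was lower, and the median log2 fold change of the 6 was 0.15, against 0.0027 for all 13412 genes tested.

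**Figure D2:**
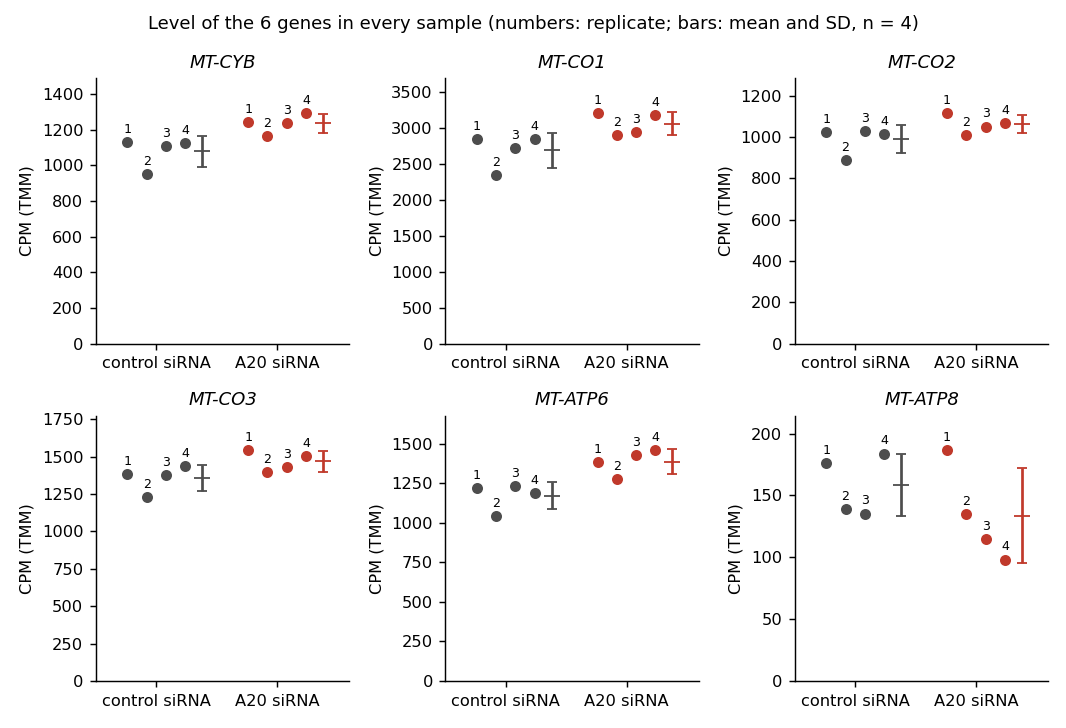
Level of each of the 6 genes in CPM (y axis, from 0) in the 4 control siRNA (grey) and 4 A20 siRNA (red) samples, numbered by replicate, with mean and SD at the side of each group. MT-CYB, MT-CO1 and MT-ATP6 have groups that do not overlap, and MT-ATP8 in A20 siRNA samples runs from 98.2 to 186.

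In complex III, MT-CYB was at 1133, 949, 1109.9 and 1126 CPM in control replicates 1 to 4 and at 1241, 1166, 1239.7 and 1294 CPM in A20 siRNA replicates 1 to 4. The groups did not overlap, although the lowest A20 siRNA sample was close to the highest control sample. The log2 fold change was 0.19 (standard error 0.04).

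Of the cytochrome c oxidase genes, MT-CO1 had 2850.4, 2342, 2718 and 2845 CPM in control replicates 1 to 4 and 3208, 2905, 2945 and 3186 CPM in A20 siRNA replicates 1 to 4. Again no A20 siRNA sample reached down into the control range, and the log2 fold change was 0.19 (standard error 0.05). MT-CO2 had 1023, 888, 1031 and 1014 CPM with control siRNA and 1116, 1010.5, 1051 and 1069 CPM with A20 siRNA, in the same order of replicates. Its groups overlapped, because A20 siRNA replicate 2 fell among the control samples, and its log2 fold change was 0.10 (standard error 0.04). Without control replicate 2 it was 0.05. MT-CO3, which begins at the last base of MT-ATP6, had 1385, 1228, 1378 and 1434 CPM with control siRNA and 1541, 1394, 1428 and 1505 CPM with A20 siRNA. Here 2 of 4 A20 siRNA samples lay within the control range, and the log2 fold change was 0.11 (standard error 0.04), or 0.07 without control replicate 2.

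The ATP synthase genes, which share an mRNA, had mean differences of opposite sign. MT-ATP6 was at 1222, 1046, 1230.5 and 1188 CPM in control replicates 1 to 4 and at 1384, 1277, 1428 and 1458 CPM in A20 siRNA replicates 1 to 4. Its groups did not overlap, and its log2 fold change of 0.24 (standard error 0.04) was the highest of the 6. MT-ATP8 was at 176, 139, 135 and 184 CPM with control siRNA and at 186, 135, 115 and 98.2 CPM with A20 siRNA. The highest of all 8 samples and the 3 lowest were thus A20 siRNA samples, and the fitted difference was -0.23 on the log2 scale, with 0.13 as its standard error.

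Set against each other, MT-ATP8 had 144, 133, 110.0 and 155 reads per 1000 MT-ATP6 reads in control replicates 1 to 4 and 135, 106, 80.6 and 67.3 in A20 siRNA replicates 1 to 4. The groups overlapped through A20 siRNA replicate 1. Leaving out that sample took the log2 fold change of MT-ATP8 to -0.45, and leaving out A20 siRNA replicate 4 took it to -0.11. The samples also differed in how their gene levels ran with exonic length. Spearman's rho across genes between log2 length and the sample's deviation from the mean of all samples was 0.079, -0.164, -0.111 and -0.200 in control replicates 1 to 4, and 0.069, -0.082, 0.144 and 0.178 in A20 siRNA replicates 1 to 4. Positive values mean that longer genes were relatively higher. The methods give RNA integrity only as a range over all samples, so it could not be set beside these trends sample by sample. MT-ATP8 is the shortest of the 6 genes, and with each sample's trend with length removed its log2 fold change was -0.26 and that of MT-ATP6 0.24. That correction used the annotated length of MT-ATP8, 207 bases, although the gene shares a longer mRNA with MT-ATP6. An effect of the length of the RNA itself was therefore not tested.

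**Figure D3:**
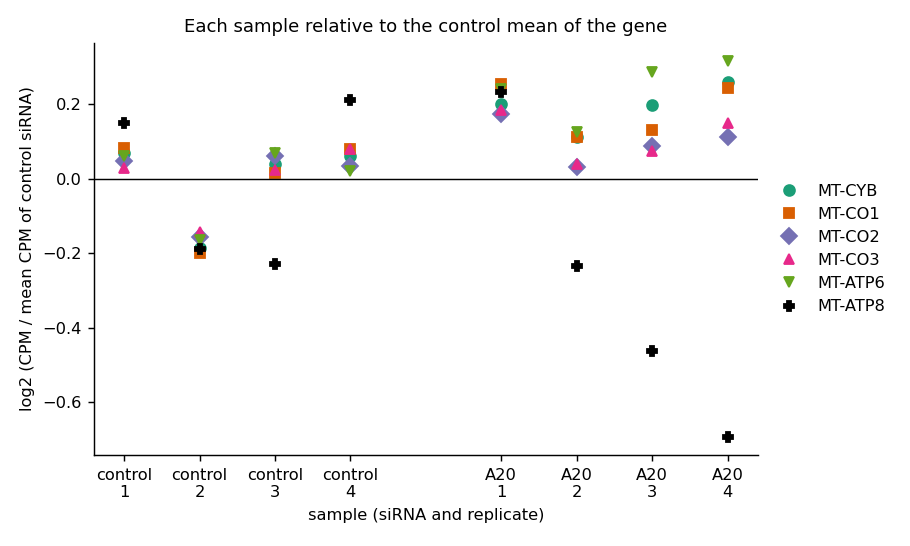
Level of the 6 genes in each sample relative to the gene's control siRNA mean (y axis, log2 ratio of CPM), with the samples on the x axis. The 5 genes other than MT-ATP8 are each lowest in replicate 2 of each group. With A20 siRNA, MT-CO1, MT-CO2 and MT-CO3 are highest in replicate 1 and MT-CYB and MT-ATP6 in replicate 4. MT-ATP8 lies below the 5 in control replicate 3 and in A20 siRNA replicates 2 to 4.

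Of the 6 genes, 3 (MT-ATP6, MT-CYB and MT-CO1) passed as higher once p-values were adjusted over all 13412 genes (threshold 0.05), where 0.634% of genes were called higher and 1.25% in either direction. The groups of the same 3 genes did not overlap, and over all genes tested 3.71% had an A20 siRNA group wholly above the control group and 7.61% had groups apart in either direction. These counts, like those over all genes, rested on single samples. No gene of the 6 was called without A20 siRNA replicate 3, where 6 of all genes were called higher and 6 lower. Without control replicate 2, 3 or 4 or A20 siRNA replicate 4, 1 was called, always MT-ATP6. In those fits, in that order, 11, 19, 9 and 26 of all genes were called higher and 7, 26, 7 and 25 lower. Without A20 siRNA replicate 1 there were 3, with MT-ATP8 called lower and MT-CO1 no longer called. In that fit 49 of all genes were called higher and 151 lower. With DESeq2, the package the study itself used, MT-ATP6 was the only one called, where 83 of all genes were called higher and 122 lower. MT-CYB and MT-CO1 missed the threshold there (DESeq2, BH-adjusted p = 0.0974 and 0.211). In the edgeR fit MT-CO1 was no longer called when every sample had to reach 10 counts.

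Within the mitochondrial genome, the complex I genes had the higher median. It was a log2 fold change of 0.25 over 7 genes, from 0.05 to 0.28, and 5 of the 7 were called. Among reads of the 13 mitochondrial protein genes, the 6 made up 55.9% ± 0.580 in control samples and 54.6% ± 0.579 in A20 siRNA samples (means ± SD of 4), and these groups did not overlap. The share of MT-CO3 was 10.2% and 9.60% and that of MT-CO2 7.43% and 6.95%, both without overlap. The groups overlapped for all other shares. That of MT-ATP6 was higher on average with A20 siRNA, at 8.80% and 9.07%, and that of MT-ATP8 lower, at 1.19% and 0.875%. MT-CO1 had 20.17% and 20.03%, and MT-CYB 8.10% and 8.08%. MT-ATP8, MT-ND4L and MT-ND3 are the 3 shortest of the 13 genes, and they had the 3 lowest log2 fold changes. The comparison with complex I uses the same samples and was not tested.

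**Figure D4:**
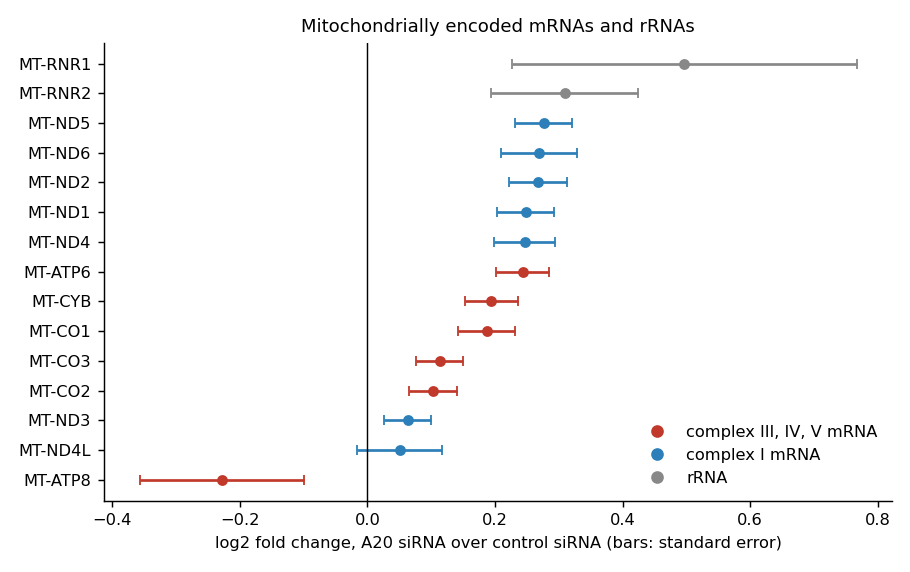
Log2 fold change of A20 siRNA over control siRNA (x axis) for the 13 mitochondrial protein genes and the 2 rRNAs, with standard errors of the fit as bars; red marks the 6 genes described here. The red points run from -0.23 for MT-ATP8 to 0.24 for MT-ATP6, and the complex I genes (blue) from 0.05 to 0.28.

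Because unique mapping leaves out reads that fit a nuclear copy equally well, the annotated nuclear copies were examined. The copy with the most reads was MTATP6P1 on chromosome 1, 633696 to 634376 in GRCh38, which matched MT-ATP6 at 98.5% of 681 bases. It held 18.8% as many reads as MT-ATP6, between 5056 and 8948 per sample. The copies of the other genes held far fewer. MTCO1P12 (chromosome 1, 631074 to 632616), 98.6% identical to MT-CO1, had 0.289% as many reads as that gene, and the leading copies of MT-CO2, MT-CO3, MT-CYB and MT-ATP8 had at most 11 reads in a sample. MTATP6P1 averaged 224 ± 21.2 CPM in control samples and 254 ± 14.7 in A20 siRNA samples (SD, n = 4 each). The difference of 0.18 on the log2 scale (standard error 0.05) missed the threshold (edgeR, BH-adjusted p = 0.0679). Reads of MTATP6P1 and MT-ATP6 could have been exchanged in mapping, so both values are uncertain. With the reads of all named copies added to their mitochondrial genes, the log2 fold change of MT-ATP6 was 0.23 and that of MT-CO1 0.19.

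The nuclear-encoded partners of these subunits had mostly negative log2 fold changes. Of 75 listed nuclear genes for subunits and assembly factors of complexes III, IV and V, 70 were tested, 5 passed as lower in A20 siRNA samples by edgeR (BH threshold 0.05) and 0 as higher, where 0.611% of all genes were called lower. With DESeq2 or limma-voom, 0 were higher at the same adjusted threshold. At an unadjusted p-value under 0.05 in the edgeR fit there were 30 lower and 0 higher, where 7.37% of all genes tested were lower and 8.81% higher at that level. The median log2 fold change of the 70 genes was -0.07, and 57 of them were negative, against 48.4% of all genes tested. The calls depended on single samples, with 0 lower when control replicate 2, 3 or 4 or A20 siRNA replicate 3 or 4 was left out. In those fits, in that order, 7, 26, 7, 6 and 25 of all genes were called lower. There were 18 without control replicate 1, 10 without A20 siRNA replicate 1 and 11 without A20 siRNA replicate 2. Over all genes, 430, 151 and 154 were called lower in these fits. With each sample's trend with exonic length removed, 12 passed as lower and 0 as higher, where 238 of all genes tested passed as lower. How far the samples' differing trends with length share in the negative values was not tested.

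Among subunits of complex IV, all 11 tested had negative log2 fold changes, with a median of -0.11, and 3 passed. COX8A, a small subunit, had 109, 119, 119 and 113 CPM in control replicates 1 to 4 and 111, 102, 91.6 and 100.6 in A20 siRNA replicates 1 to 4, so its groups overlapped through A20 siRNA replicate 1. The difference was -0.17 on the log2 scale (standard error 0.04; edgeR, BH-adjusted p = 0.0467). NDUFA4, once counted to complex I and since placed in complex IV, averaged 118 ± 4.07 CPM in control and 104.5 ± 7.96 in A20 siRNA samples (SD, n = 4 each; edgeR, BH-adjusted p = 0.0416), and its groups did not overlap. COX5B, a zinc-binding subunit, averaged 66.4 ± 2.05 and 59.3 ± 3.82 CPM (SD, n = 4 each; edgeR, BH-adjusted p = 0.0467), also without overlap. COX4I1 and COX5A, the first nuclear subunits to join MT-CO1 during assembly, had log2 fold changes of -0.06 and -0.10 (edgeR, BH-adjusted p = 0.269 and 0.102) and did not pass. Of 22 tested assembly factors of complex IV, COA6, which helps to deliver copper to MT-CO2, was lower at 36.05 ± 0.974 and 32.2 ± 0.676 CPM (SD, n = 4 each), and the other 21 did not pass. The translational activator of MT-CO1, TACO1, had a log2 fold change of -0.08 (edgeR, BH-adjusted p = 0.499).

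Of 18 tested subunit genes of complex V, 16 had negative log2 fold changes, the median was -0.09, and 1 passed. This was ATP5MC2, a gene for the rotating c-ring that turns against MT-ATP6, which averaged 179 ± 10.1 and 162 ± 5.05 CPM (SD, n = 4 each), a difference of -0.14 on the log2 scale (standard error 0.03; edgeR, BH-adjusted p = 0.0384). Its sister gene ATP5MC1 had a log2 fold change of -0.10 and the catalytic subunits ATP5F1A and ATP5F1B of -0.06 and -0.04, none of which passed (edgeR, BH-adjusted p = 0.174, 0.165 and 0.384). None of the 9 subunit genes of complex III passed. Their median was -0.05, and the catalytic partners of MT-CYB, UQCRFS1 and CYC1, had log2 fold changes of -0.04 and -0.07, with -0.04 for the core protein UQCRC1. The 6 assembly factors of complex III and 4 of complex V had no call.

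**Figure D5:**
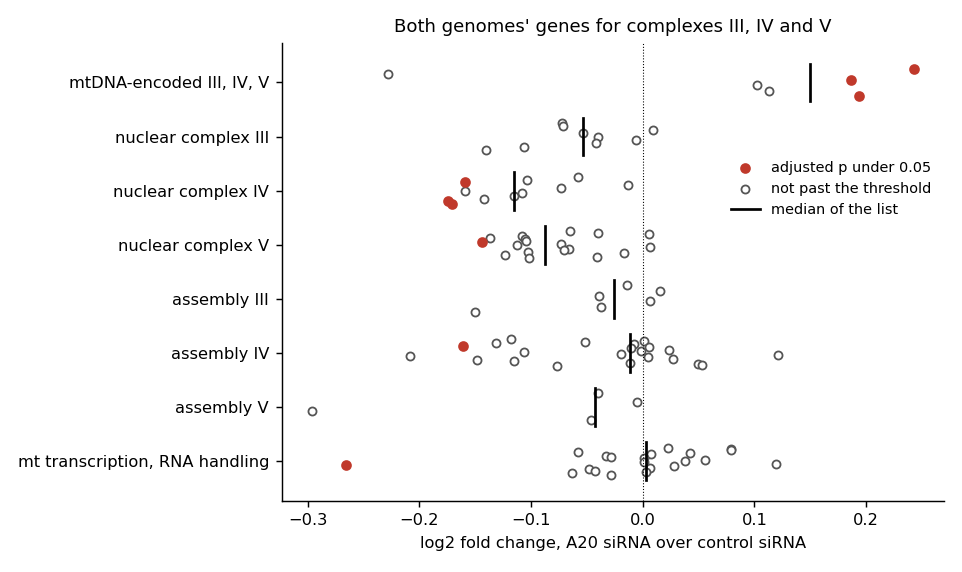
Log2 fold change of A20 siRNA over control siRNA (x axis) for each tested gene of the lists on the y axis; filled points have an adjusted p-value under 0.05 and the vertical bar is the list's median. Medians of the nuclear subunit lists lie at -0.05, -0.11 and -0.09 for complexes III, IV and V, against 0.15 for the 6 mitochondrially encoded genes.

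Genes that make, process and keep mitochondrial RNA were examined as well. Of 21 tested, 1 was called. SLIRP, an RNA-binding protein that stabilizes mitochondrial mRNAs together with LRPPRC, had 50.9, 50.8, 45.7 and 48.4 CPM in control replicates 1 to 4 and 45.2, 43.7, 36.3 and 36.2 CPM in A20 siRNA replicates 1 to 4. The groups did not overlap, and they differed by -0.27 on the log2 scale (standard error 0.06; edgeR, BH-adjusted p = 0.0337). Its partner LRPPRC was at 453 ± 2.49 and 453 ± 2.14 CPM (SD, n = 4 each), with a log2 fold change of 0.0013. The mitochondrial RNA polymerase POLRMT had a log2 fold change of 0.0015, and the transcription and packaging factor TFAM of -0.04. None of 9 genes for replication and upkeep of mitochondrial DNA passed by edgeR, and 1 had an unadjusted p-value under 0.05, which 16.2% of all genes tested had. That gene, named after its value was seen, was SSBP1, which coats single-stranded mitochondrial DNA, at 148 ± 6.49 and 139.96 ± 3.91 CPM (SD, n = 4 each).

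The 5 genes other than MT-ATP8 were lowest in replicate 2 of both groups, as were the complex I genes MT-ND1, MT-ND2, MT-ND4, MT-ND5 and MT-ND6. Likeness was measured as Pearson's r over the 8 samples between deviations from the group means on the log2 scale, taken against the summed level of the 6 genes. It was 0.874 to 0.988 for the 5 genes, which are themselves part of that sum, and 0.335 for MT-ATP8. Among the complex I genes it was 0.970 for MT-ND1, 0.961 for MT-ND5 and 0.923 for MT-ND4, and 0.818 or less for the other 4. As a description, tested genes outside the mitochondrial genome that were most alike included SLFNL1 (r = 0.988), HIF1AN (0.985), PBRM1 (0.970) and ENSG00000279667 (0.964). SLFNL1 and ENSG00000279667 averaged 0.382 and 0.731 CPM, near the limit of detection. The named genes outside the mitochondrial genome were picked for the highest r among all genes tested there. Values this high can therefore come from the search alone, and shared regulation with the 6 genes was not tested. The 8 points share their group means and library scaling.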

How the data were processed

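Per the labels and methods, poly(A)-selected RNA of RKO cells was sequenced as single reads of 75 cycles, trimmed with Trimmomatic and mapped to GRCh38 with STAR. The authors deposited raw counts of uniquely mapping reads for 57992 genes, 1 file per sample. The GENCODE release, the strand setting and the versions of Trimmomatic and STAR are not given in the sources used here.

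The 4 control siRNA and 4 A20 siRNA samples were compared in R 4.3.3 by edgeR 4.0.16 (filterByExpr, minimum count 10, 13412 genes kept, TMM, quasi-likelihood test without covariates, Benjamini-Hochberg threshold 0.05). Standard errors were derived from the F statistic. Symbols, lengths and coordinates came from GENCODE release 44 on GRCh38 by identifier without version (56948 of 57992 matched, all 6 mitochondrial genes with the same version). Read positions assume 75 untrimmed bases, reads overlapping 1 gene on either strand, and exact nuclear copies found with BLAST 2.17.0 on the reference sequence. RKO's own mitochondrial sequence was not used.

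The genes and lists were chosen with earlier results of these data known. Named genes were the 6 genes, listed nuclear genes with an adjusted p-value under 0.05, 14 partners fixed by name, the copy with most reads per gene, and the 5 most alike genes, of which 1 is not reported here. Alternatives were RLE, other low-count filters, DESeq2 1.42.0, limma-voom (limma 3.58.1), a replicate block, library sizes without mitochondrial genes, a loess correction for exonic length (span 0.5), nuclear copies added and each sample left out. Within groups, replicates were further apart than sampling noise allows (chi-square per degree of freedom 1.32 to 3.67).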

Additional observations from a re-analysis of the deposited data

Results flagged for a closer look

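Among 56 sets of 4 replicate values, 3 had a sample standing apart, where chance gives about 1 in 20 groups, or 2.8. In control siRNA replicate 2, MT-CYB was at 949 CPM against 1109.9 to 1133 in the other control samples, a gap of 0.874 of the group's range. In the same sample, MT-CO2 was at 888 CPM against 1014 to 1031, a gap of 0.879. TNFAIP3 in A20 siRNA replicate 2 was at 3.00 CPM against 3.40 to 3.47, a gap of 0.847. With both replicates numbered 2 left out, an alternative chosen after seeing the data, mean log2 CPM differed between the groups by 0.16 for MT-CYB, 0.15 for MT-CO1, 0.08 for MT-CO2, 0.09 for MT-CO3, 0.23 for MT-ATP6 and -0.35 for MT-ATP8.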

How the results depend on the processing

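Each of the 6 genes kept the direction of its log2 fold change under every alternative run, as did TNFAIP3, which ran from -0.77 to -0.67 when 1 sample was omitted and received no adjusted p-value from DESeq2. The median of the 6 genes ranged from 0.10 to 0.18 with each sample left out, with MT-CO1 from 0.12 to 0.21, MT-CO2 from 0.05 to 0.12 and MT-CO3 from 0.07 to 0.14, each of these 4 lowest without control replicate 2, and the difference in the summed share of counts of the 6 from 0.0674 to 0.111 percentage points. The number of the 6 called changed from 3 to 6 without a low-count filter, 2 when every sample had to reach 10 counts (MT-CO1 was lost), 1 with DESeq2, 5 under the replicate block, 6 under block plus length correction (both counts of 6 include MT-ATP8 as lower), and 0 to 3 with a sample left out. Over all genes, 85 were higher and 82 lower, against 314 and 310 without a filter, 262 and 212 under the replicate block, 189 and 447 under block plus length correction, 238 lower with the length correction alone, and 6 to 567 higher and 6 to 430 lower with a sample left out. Of the nuclear genes of complexes III, IV and V, 5 were lower, against 19 without a filter, 3 when every sample had to reach 10 counts, 9 with DESeq2, 3 with limma-voom, 13 with the replicate block, 12 with the length correction, 19 with both, and 0 to 18 with a sample left out; 0 were higher in each of these fits. The cause of these shifts was not tested. Over all genes tested, deviations of samples with the same replicate number correlated by 0.084, 0.034, 0.035 and -0.0098 for numbers 1 to 4. Only number 1 matched its own number best. The sources used here do not say whether the numbers mark pairs, and these correlations cannot decide it. Levels per 1000 annotated bases moved with the length used. Bases in no other gene gave 908 for MT-ATP8. Read positions in 1 gene only, a scale chosen after seeing the data like the next, gave 1615 for MT-CO2, 1991 for MT-CO3, 2284 for MT-ATP6 and 1661 for MT-ATP8, and positions without an exact nuclear copy 3091 for MT-CO1, 1851 for MT-CO2, 2341 for MT-CO3, 3068 for MT-ATP6 and 1661 for MT-ATP8. Adding nuclear copies gave 2230.1 for MT-ATP6.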

Other observations

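The mitochondrial rRNAs take no part in the comparison of the 6 genes. MT-RNR1, the RNA of the small mitochondrial ribosomal subunit, was at 253, 223, 602 and 461 CPM in control replicates 1 to 4 and at 227, 654, 619 and 677 CPM in A20 siRNA replicates 1 to 4. MT-RNR2, of the large subunit, ranged from 800.03 to 1284 CPM with control siRNA and from 933 to 1395 with A20 siRNA. The groups overlapped for both rRNAs. The coefficient of variation of MT-RNR1 was 46.6% and 39.1% in control and A20 siRNA samples, against 15.7% and 28.6% for MT-ATP8, the most variable of the 6 genes.

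In A20 siRNA replicate 3, MT-ATP6 and MT-CO3 both had exactly 34909 reads, while their counts differed in each of the other samples.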
